A study of Homo sapiens with 3 samples.

Results

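The peaks described here lie inside genes for long noncoding RNAs (lncRNAs) and away from protein-coding genes, in a map of the DNA recovered with the lncRNA KCNQ1OT1 from HEK293T cells (an established line of human embryonic kidney origin). They were taken from the authors' merged list by position: a peak midpoint on chromosomes 1 to 22 had to fall inside a RefSeq GRCh38 lncRNA gene, outside every protein-coding gene and more than 5 kb from the ends of such genes, with KCNQ1OT1 itself left out. This gave 300 of the 4454 autosomal peaks and of the 4889 peaks in the list. They are called lncRNA-only peaks below. In the assay, ChIRP-seq, biotinylated oligonucleotides against an RNA draw it out of crosslinked chromatin and the attached DNA is sequenced. The 3 libraries were a pulldown with odd probes, a pulldown with even probes and an input without probes, with 1 library in each group. Chromatin had been crosslinked for 30 min in 3% formaldehyde. The single merged list, in which every peak carries the name of the even pulldown, gives 1 value per peak, so there is no spread between replicates and no test between conditions. Values are described with counts, medians and 95% intervals that cover counting error only and take peaks as independent, and the sequencing depth behind them is unknown.

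An lncRNA is a transcript without a long open reading frame. Many lncRNA genes start beside or opposite a protein-coding gene, and some of their RNAs, KCNQ1OT1 among them, act on chromatin in the nucleus. KCNQ1OT1 is known for silencing neighbouring imprinted genes on the chromosome that transcribes it. A peak inside an lncRNA gene is a piece of DNA recovered with the KCNQ1OT1 probes and says nothing of whether that lncRNA gene is transcribed. Fold enrichment, here called fold, is a linear ratio, called by the authors, of the signal at a peak's summit to its background.

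RefSeq promoter windows for GRCh38.p14, which run from 250 bases before a gene's start to 50 after it, were reached by 5 of the 300 peaks. Such windows were given for the genes of only 180 of the 300. The windows reached belong to LOC283387, FAM230F, LOC124901768, BCAR4 and LINC01667. The windows of LOC283387 (chr12:57896433-57896732, minus strand), LOC124901768 (chr7:148966784-148967083, plus strand) and BCAR4 (chr16:11828783-11829082, minus strand) are printed as examples that differ in CpG count. Those of FAM230F and LINC01667 are described by their counts alone. Capitals mark the bases inside the peak.
LOC283387: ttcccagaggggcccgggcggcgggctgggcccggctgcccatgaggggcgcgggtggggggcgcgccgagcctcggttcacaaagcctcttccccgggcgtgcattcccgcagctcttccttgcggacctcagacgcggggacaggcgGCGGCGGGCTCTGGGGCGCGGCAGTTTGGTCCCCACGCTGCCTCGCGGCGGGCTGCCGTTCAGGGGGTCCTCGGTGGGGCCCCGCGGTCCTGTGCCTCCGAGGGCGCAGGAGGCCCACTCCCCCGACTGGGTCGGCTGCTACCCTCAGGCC
LOC124901768: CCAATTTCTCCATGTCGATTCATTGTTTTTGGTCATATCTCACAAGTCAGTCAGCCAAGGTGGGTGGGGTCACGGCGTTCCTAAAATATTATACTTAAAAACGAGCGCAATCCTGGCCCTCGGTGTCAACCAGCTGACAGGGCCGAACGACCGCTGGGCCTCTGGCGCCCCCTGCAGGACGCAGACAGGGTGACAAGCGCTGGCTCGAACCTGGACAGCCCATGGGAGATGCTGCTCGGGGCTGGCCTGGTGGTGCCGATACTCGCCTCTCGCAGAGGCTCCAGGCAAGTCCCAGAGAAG
BCAR4: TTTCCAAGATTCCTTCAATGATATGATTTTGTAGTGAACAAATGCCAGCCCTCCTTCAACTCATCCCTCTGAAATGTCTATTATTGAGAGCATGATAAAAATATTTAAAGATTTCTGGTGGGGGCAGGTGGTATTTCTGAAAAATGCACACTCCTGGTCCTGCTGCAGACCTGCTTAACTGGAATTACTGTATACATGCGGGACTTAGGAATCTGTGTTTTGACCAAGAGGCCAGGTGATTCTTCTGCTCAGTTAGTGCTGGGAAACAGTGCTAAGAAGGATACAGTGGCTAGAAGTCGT
The window of LOC283387 held 33 CpG dinucleotides and 76.3% G and C, and 151 of its 300 bases lay in a peak with a fold of 52.5. LOC124901768 held 17 CpG with a fold of 6.14, and BCAR4, a gene described in breast cancer, held 2 CpG with a fold of 4.01. LINC01667 had 25 CpG and a fold of 3.08, whereas FAM230F had 2 CpG and a fold of 7.02. The median over 8231 windows of the lncRNA genes open to the rule was 4 CpG. The motif GAGAGA and a motif of human satellite III repeats were searched on both strands, and neither was in any of the 5 windows. The first was in 25.3% and the second in 0.134% of the 8231 windows, and in 22.4% and 0.0740% of all 35116 promoter windows of that length. Over the 220 windows of lncRNA genes with a lncRNA-only peak the shares were 25.9% and 0%, where 0 of 220 windows allows up to 1.36%.

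The highest fold of the whole list lay over a vault RNA gene. Vault RNAs are short transcripts of RNA polymerase III found in the vault particle, and 3 of their genes, VTRNA1-1, VTRNA1-2 and VTRNA1-3, follow each other inside the lncRNA gene LOC105378198 (GRCh38 chromosome 5, 140711276 to 140758080, plus strand). The peak with a fold of 386 and a −log10 p of 2399 spanned 140725937 to 140726659 and held the 88 bp of VTRNA1-3, with its summit inside that gene. A second peak, at 140718708 to 140719382, had a fold of 124 and a −log10 p of 658. It held the 88 bp of VTRNA1-2, again with the summit inside the gene. These were the lncRNA-only peaks of first and second rank by fold, and ranks 1 and 7 in the whole list. VTRNA1-1, whose start is also the start of LOC105378198, was 7.33 kb from the nearest peak, and VTRNA2-1, elsewhere on chromosome 5, was 54.4 kb from one. Thus 2 of the 4 autosomal vault RNA genes had a peak of any class, and the other 2 lie outside the length open to the rule. Vault RNA genes resemble each other, and whether reads were shared between copies was not tested.

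**Figure D1:**
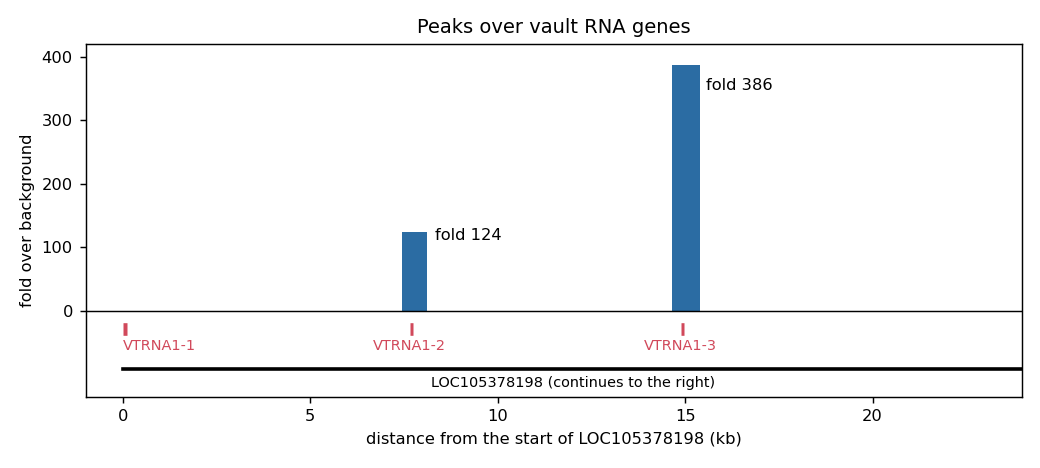
Fold over background (vertical axis) of both peaks in LOC105378198 against distance from the start of that gene in kb (horizontal axis), with the 3 vault RNA genes drawn below at scale. The bars span the peaks, with folds of 124 over VTRNA1-2 and 386 over VTRNA1-3, and no bar stands at VTRNA1-1.

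Few other short genes were under lncRNA-only peaks, which span 236 kb in all against the 335 Mb open to the rule. Whether the counts below differ from what such a span gives was not tested. The peak of 592 bp in LOC105373430 on chromosome 2 (11836559 to 11837150, fold 50.9) held the microRNA gene MIR4262 (chr2:11836933-11836986, minus strand), with the summit 118 bp outside it. The mature miRNA is printed from RefSeq to identify the gene, with the seed (bases 2 to 8) in capitals.
hsa-miR-4262: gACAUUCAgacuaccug
A peak in LOC105372436 on chromosome 19 shared 5 bases with the small RNA gene SNAR-B2 and had a fold of 3.36. Only 50 of 439 tRNA genes and 220 of 1150 snoRNA genes touch the length open to the rule. No lncRNA-only peak touched any of these, which allows shares of up to 6% and 1.36%. Among snRNA genes 17 of 151 touch that length, and among miRNA genes 201 of 1793, with 1 of each under a lncRNA-only peak. Over all autosomal peaks 0 of the 439 tRNA genes, 1 of the 1150 snoRNA genes, 7 of 151 snRNA genes and 4 of 1793 miRNA genes had a peak.

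The fold of the lncRNA-only peaks had a median of 15.8 (interval 13.4 to 19.03), quartiles of 7.21 and 34.2 and extremes of 2.71 and 386. Of the 300 peaks, 125 had a fold of 20 or more, which is 41.7% (Wilson interval 36.2 to 47.3). The background was 26.1% over all autosomal peaks and 36.0% over autosomal peaks outside gene-free intervals. Gene-free intervals are stretches of at least 2 Mb without a gene, mostly centromeric, in which a lncRNA-only peak cannot lie. The share was 39.5% (37.0 to 42.1) for 1382 peaks inside protein-coding genes, whose median fold was 12.8 (11.4 to 14.1). It was 31.8% (29.1 to 34.5) for 1140 other intergenic peaks, with a median of 9.85 (9.33 to 11.2). Peaks within 5 kb of a protein-coding gene had the lowest of these shares, 25.9% (20.2 to 32.7; n = 185), with a median of 8.41 (7.19 to 9.90). The interval of the lncRNA-only share thus overlapped that of protein-coding genes and lay above those of the other classes. This did not hold for other intergenic peaks once peaks within 5 Mb of a gene-free interval were left out. The shares were then 43.9% (38.1 to 49.9) for lncRNA-only and 35.5% (32.5 to 38.6) for other intergenic peaks, with overlapping intervals. No test between these classes was made.

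Per length, lncRNA-only peaks were fewer than peaks of the other classes, with intervals that did not overlap. They numbered 0.897 per Mb (Poisson interval 0.798 to 1.00) over the 335 Mb in which a midpoint meets the rule. Protein-coding genes held 1.14 per Mb (1.08 to 1.20), their 5 kb flanks 1.51 per Mb (1.30 to 1.74) and other intergenic DNA 1.10 per Mb (1.04 to 1.16). Within 5 Mb of a gene-free interval lay 18.0% of the other intergenic peaks, against 9.67% of the lncRNA-only peaks. Densities without these peaks were not computed, so whether the difference from other intergenic DNA holds away from such intervals was not tested. Assembly gaps were not taken out of these lengths.

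**Figure D2:**
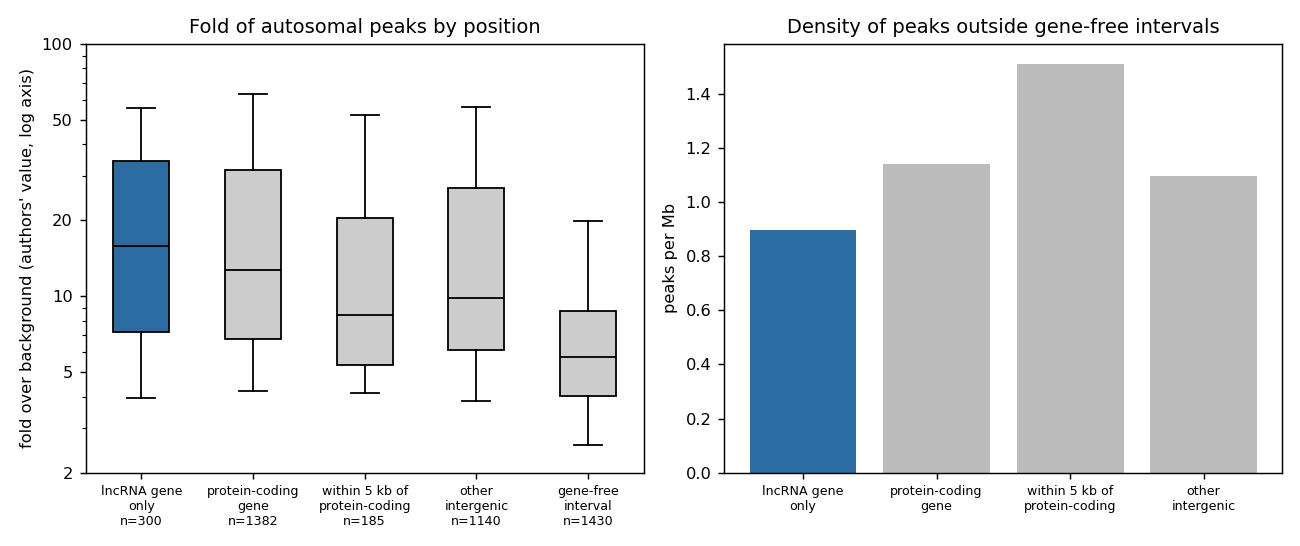
Left, fold over background on a log axis for autosomal peaks in 5 classes of position, with boxes at the quartiles, a line at the median and whiskers at the 5th and 95th percentiles. Right, peaks per Mb in the 4 classes outside gene-free intervals. The lncRNA-only class (blue) has the highest median fold, 15.8, and the lowest density, 0.897 per Mb.

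To describe fold beside width, the lncRNA-only peaks were split by width into a narrow and a wide kind. Whether the widths form separate groups was not tested. Widths ran from 295 to 3058 bp with a median of 580.5 bp. At a limit of 750 bp, chosen after the values were seen, 203 peaks were narrow, with a median fold of 24.9 (20.9 to 28.4), and 97 were wide, with a median of 6.99 (6.47 to 7.64). Over all 300 peaks the Spearman rho of fold and width was −0.295. Among the narrow peaks taken alone rho was 0.519 over 203 peaks, and 121 of them had a fold of 20 or more. Among the wide ones rho was 0.159 and 4 reached that fold, in LOC105369468 (76.1), LOC107987108 (55.2), LOC105376205 (36.5) and LOC102724527 (30.8). Both values of a peak come from the same reads, so these correlations describe the list alone. The narrow kind made up 67.7% (62.2 to 72.7) of lncRNA-only peaks, 66.1% (63.5 to 68.5) of peaks in protein-coding genes, 54.3% (51.4 to 57.2) of other intergenic peaks and 47.0% (39.97 to 54.2) of peaks in the 5 kb flanks. Within the narrow kind the median fold was 24.9, 23.98 (22.1 to 25.5), 22.3 (19.4 to 24.7) and 20.4 (12.6 to 25.6) in that order, with overlapping intervals. Within the wide kind the medians were 6.99, 7.31, 7.07 and 6.86. The median length of the lncRNA gene was 95.5 kb for narrow and 60.5 kb for wide lncRNA-only peaks, with no interval computed. Median width did not change steadily with gene length. It was 771 bp in genes up to 10 kb, 582 bp from 10 to 50 kb, 557.5 bp from 50 to 200 kb and 600 bp beyond.

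**Figure D3:**
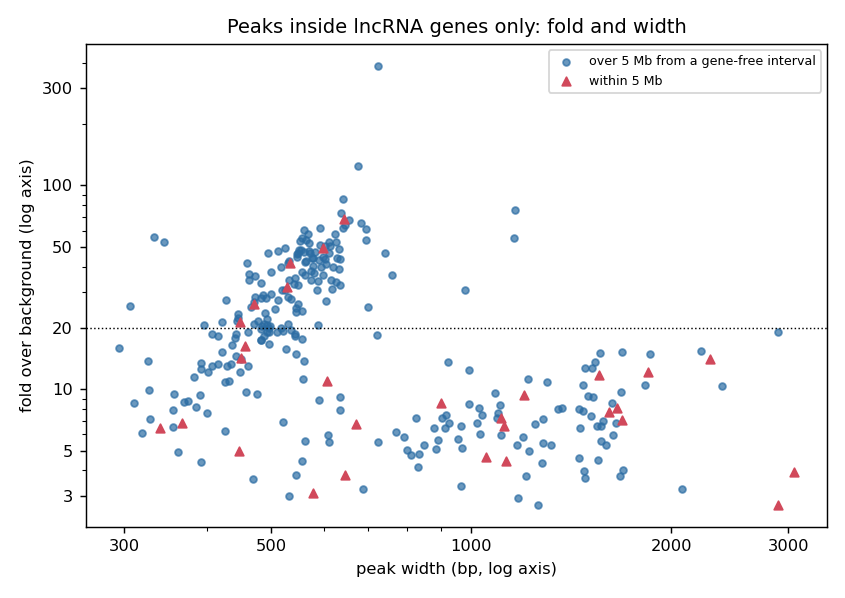
Fold over background against peak width in bp, both on log axes, for the 300 lncRNA-only peaks. Red triangles are the 29 peaks within 5 Mb of a gene-free interval and the dotted line marks a fold of 20. Up to about 750 bp the points rise with width, and beyond it nearly all lie under the line.

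Behind the vault RNA peaks the folds declined in smaller steps. The third, in LOC124903917 (chromosome 1, 31564179 to 31564818, 12.02 kb from TINAGL1), had a fold of 85.5. LOC105369468 (chromosome 11, 134.6 kb from the glutamate receptor gene GRIA4) had 76.1. GMDS-DT, transcribed divergently from the gene of an enzyme of GDP-fucose synthesis, had 73.7 at 2384411 to 2385046 on chromosome 6. LOC105369309, in an olfactory receptor region of chromosome 11, had 68.1 and CASC15 had 67.6. LOC105378305 (65.8), LINC01169 (63.9), LOC105374971 (61.8), LOC107984536 (61.7) and LOC112268156 (61.0) followed. LOC105370324 (60.1), LINC01362 (58.1) and LOC105373831 (57.8) completed the first 15. Of the 10 lncRNA-only peaks with the highest −log10 p, 9 were among these 15, and the other was in LINC01788 (fold 55.2). In all 28 peaks had a fold of 50 or more, 2 of 100 or more and 30 under 5. The last of the 28, in LINC01392, ranked 281 in the whole list. The fold of 43 was above 45.9, the highest of the 17 peaks at KCNQ1OT1, whose median was 20.4. The last of the 43, in SMAD3-DT, ranked 354 in the whole list, so many peaks outside the lncRNA-only class also passed that value. At the low end stood LOC102724340 (2.71), FAM230C (2.71) and LOC101928135 (2.93). The widest peaks lay in LINC01667 (3058 bp), FAM230C (2897 bp) and LINC02512 (2895 bp), with folds of 3.90, 2.71 and 19.2.

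The 300 peaks fell in 296 lncRNA genes, counting both genes for the 14 midpoints inside a pair of overlapping lncRNA genes. That is 2.50% of the 11818 autosomal lncRNA genes with some length open to the rule. Genes with a peak had a median length of 74.8 kb against 11.97 kb for those without. A peak was found in 0.540% (Wilson interval 0.374 to 0.780) of genes up to 10 kb long, 1.80% (1.46 to 2.22) of those from 10 to 50 kb, 6.68% (5.57 to 7.99) from 50 to 200 kb and 22.5% (18.4 to 27.3) beyond 200 kb. Per Mb of open length the values were 1.28 (Poisson interval 0.850 to 1.85), 0.917 (0.734 to 1.13), 0.850 (0.702 to 1.02) and 0.807 (0.643 to 1.00), with intervals that all overlapped. Peaks in genes up to 10 kb had a median fold of 9.35 (7.43 to 18.2; n = 25), against 18.6 (13.7 to 23.3; n = 112) in genes from 50 to 200 kb, with overlapping intervals.

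Along the genes the peaks were spread from start to end. Strand was given for the genes of 180 peaks, which numbered 35, 32, 34, 48 and 31 in successive stretches of 20% of the gene from the start, with median folds of 15.4, 19.9, 16.3, 17.4 and 16.7. Within 1 kb of an annotated start of their gene lay 6 of these peaks, and within 5 kb 23. Those 6 were the peaks of the 5 promoter windows and of LOC101929333 on chromosome 15, whose midpoint was 448.5 bp from the start and whose fold was 54.1.

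In 18 genes there was a pair of lncRNA-only peaks, and in none were there more. Both folds were 20 or more in 6 genes, both were under 20 in 9 and 3 had one on each side. Distances between midpoints ran from 1.35 to 274 kb with a median of 27.8 kb, and 7 pairs were within 10 kb. After LOC105378198, LOC105369468 had folds of 34.2 and 76.1 at 274 kb from each other. LOC112268156, which overlaps the antisense gene NR2F2-AS1 at the second peak, had 21.7 and 61.0. MMADHC-DT, divergent from a gene of vitamin B12 metabolism, had nearly equal folds of 47.6 and 48.7 at 35.9 kb. LINC01170 likewise had 42.6 and 44.4, and LINC01605 had 46.7 and 27.4. Larger contrasts were found in LINC01709 (33.9 and 4.76) and MGC4859 (6.45 and 39.96). LOC101927213 had 15.2 and 36.1. The closest pair, in CASC2, had folds of 18.5 and 18.6.

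**Figure D4:**
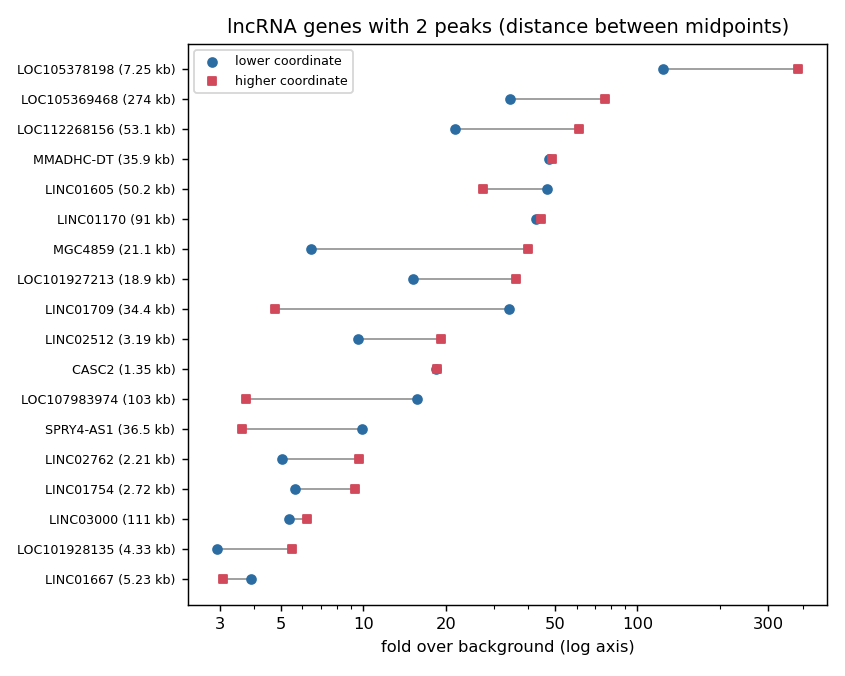
Fold over background on a log axis of both lncRNA-only peaks in each of the 18 genes with a pair, ordered by the higher fold, with the distance between midpoints in brackets. Circles are the peaks at the lower coordinate and squares those at the higher one. The pairs of MMADHC-DT, LINC01170 and CASC2 nearly coincide, whereas those of LINC01709 and MGC4859 lie far apart.

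For counts by name, each peak was put under the longest lncRNA gene at its midpoint. By name, 170 peaks lay in genes called LOC, which have no approved name, and 70 in numbered LINC genes. Their median folds were 15.8 (12.4 to 20.5) and 15.8 (9.53 to 20.9). Genes named as antisense to a protein-coding gene had 23 peaks with a median of 19.2 (10.5 to 30.7), among them JAKMIP2-AS1 (50.6), MEF2C-AS1 (46.8), RNF217-AS1 (39.97) and FOXP4-AS1 (36.8). NR2F2-AS1, which shares the peak of fold 61.0 with the longer LOC112268156, was not counted among the 23. RUNX2-AS1, at the gene of a transcription factor of bone formation, had 29.3. EP300-AS1 (9.22) and TET2-AS1 (6.79), opposite genes of a histone acetyltransferase and of a DNA demethylation enzyme, were low. Divergent transcripts, marked DT, had 9 peaks in 8 genes with a median of 44.1 (6.99 to 48.7). Of these 7 had a fold of 20 or more, including SMAD3-DT (46.2), ZFP69B-DT (44.1) and FBXO38-DT (37.7), and LMNB1-DT (6.99) and AGA-DT (6.47) were below it. The interval of that small class overlapped those of the LOC and LINC genes. The following shares and densities count both genes where lncRNA genes overlap at a midpoint. Peaks were found in 3.84% of 599 antisense genes, 2.50% of 320 divergent ones, 3.00% of 2135 LINC genes and 2.13% of 8201 LOC genes, against 2.50% of all open genes. Per Mb of open length these were 0.939, 0.665, 0.849 and 0.869 peaks, against 0.882 over all open genes.

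Some host genes, whose transcripts carry small RNAs, had a peak. Of 61 microRNA host genes 4 (6.56%) had one, MIR100HG (48.3), MIR9-2HG (16.5), MIR99AHG (6.60) and MIR4300HG (4.16). Per Mb of open length this was 0.650, against 0.882 over all open genes. None of 13 snoRNA host genes of the SNHG series had one, where a count of 0 allows up to 23.1%.

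Imprinted lncRNA genes outside KCNQ1OT1 had no lncRNA-only peak. Of a list of 28, 20 genes were open to the rule, over 680 kb in all, and a count of 0 among them allows up to 15%. Of 19 such lncRNA genes with a known role in chromatin or nuclear bodies, SOX2-OT, which overlaps the pluripotency gene SOX2, alone had a peak (fold 14.5), or 0.732 per Mb. Of 34 open lncRNA genes described in cancer 8 had a peak, or 23.5% against the 2.50% of all. These genes are long, with 3515 kb open in all. Their 2.28 peaks per Mb rest on 8 peaks, with no interval computed, and stood against 0.882 (Poisson interval 0.787 to 0.985) over all open genes. The folds were 67.6 for CASC15, a neuroblastoma risk gene, 48.3 for MIR100HG, 41.0 for DLEU1, named for its deletion in leukaemia, and 34.2 for the melanoma gene SAMMSON. LINC00261 had 21.3, PVT1 13.7, MIR99AHG 6.60 and BCAR4 4.01. The lists were not drawn up from this peak list, but with earlier results of it known, and no test of them was made.

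Nearest to the 300 peaks were 270 different protein-coding genes, and 28 of these were nearest to more than 1 peak. Distances from the midpoint to the end of the gene ran from 5.15 to 1827 kb with a median of 90.0 kb. Fold hardly varied with this distance (Spearman rho −0.04 over 300 peaks). The 26 peaks farther than 500 kb had a median of 8.93 (6.22 to 19.5), and the 117 from 100 to 500 kb had 18.3 (13.5 to 25.6), with overlapping intervals. NR2F2, which encodes a nuclear receptor, was nearest to 3 peaks, in LINC00924 and LOC112268156, with folds from 21.7 to 61.0. CCDC85A was also nearest to 3, with folds from 6.47 to 36.1. The endoderm transcription factor gene FOXA2 had a peak in LOC105372564 (49.5, 59.2 kb away) and one in LINC00261 (21.3, 16.9 kb away). MEF2C, encoding a transcription factor of muscle and neurons, had MIR9-2HG (16.5) and MEF2C-AS1 (46.8). The prolactin gene PRL was nearest to CASC15 (67.6) and LOC105374971 (61.8). Just inside the 5 kb limit stood peaks in LOC124904704 (5.15 kb, fold 7.43), LOC105371814 (5.35 kb, 3.95) and LOC105370575 (5.39 kb, 30.6). Just outside it were LOC105379382 (4.56 kb, 7.19), ZNF670-ZNF695 (3.92 kb, 9.57) and LOC107985337 (3.78 kb, 4.06). The limit removed 17 peaks in lncRNA genes, and 90 more lay in a protein-coding gene as well.

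Close to the gene-free intervals the median fold of lncRNA-only peaks was lower, with intervals that just overlapped. The 29 peaks within 5 Mb of one had a median fold of 8.10 (6.60 to 14.1), and 6 of them reached 20. The other 271 had a median of 18.2 (13.7 to 20.5), and 119 of them, 43.9% (38.1 to 49.9), reached 20. Of the near peaks 14 were of the wide kind. In protein-coding genes the medians were 8.04 (7.22 to 11.1) near and 13.2 (11.9 to 14.6) farther away, and in other intergenic DNA 7.26 (6.53 to 8.37) and 11.4 (9.95 to 12.8). In the 5 kb flanks the medians were 8.61 (6.99 to 25.2; n = 9) near and 8.25 (6.96 to 9.90; n = 176) farther away. The near share was 9.67% (6.82 to 13.5) of lncRNA-only peaks, 5.86% (4.74 to 7.23) of peaks in protein-coding genes, 4.86% (2.58 to 8.99) of peaks in the flanks and 18.0% (15.9 to 20.3) of other intergenic peaks. Another peak lay within 10 kb for 16 lncRNA-only peaks, or 5.33%. This share was not computed for the other classes, so it cannot be called high or low.

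Across the chromosomes the densities of lncRNA-only peaks ran from 0.320 per Mb on chromosome 18 (Poisson interval 0.0659 to 0.934; 3 peaks) to 3.34 on chromosome 19 (1.67 to 5.98; 11 peaks). Chromosome 17 followed with 2.14 (1.11 to 3.74; 12 peaks) and chromosome 20 with 1.78 (0.855 to 3.28; 10 peaks). Of the 23 peaks on chromosomes 17 and 19, 13 were of the wide kind, against 97 (32.3%) of all 300 lncRNA-only peaks. The median folds on these chromosomes were 10.9 and 6.78. In protein-coding genes the densities on chromosomes 19, 17 and 18 were 2.21, 1.58 and 0.815 per Mb. Chromosome 5, picked with its value in view, held 27 peaks with a median fold of 28.2. Of these 16 reached 20, against 125 (41.7%) of all 300 lncRNA-only peaks. The highest fold of a chromosome ran from 20.9, in LINC01908 on chromosome 18, to the 386 of LOC105378198 on chromosome 5. It was 54.0 in LOC124906209 on chromosome 3, 52.1 in LOC105375691 on chromosome 8, 50.6 in LINC01392 on chromosome 7 and 47.2 in LINC02363 on chromosome 4. On chromosomes 16, 14 and 22, with 5, 7 and 4 peaks, it was 47.95 in LINC00922, 46.8 in LINC03033 and 43.5 in LINC02554. Chromosomes 17, 19 and 21 had lower tops, with 34.3 in LOC102723819, 31.6 in TSHZ3-AS1 and 30.8 in LOC102724355.

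**Figure D5:**
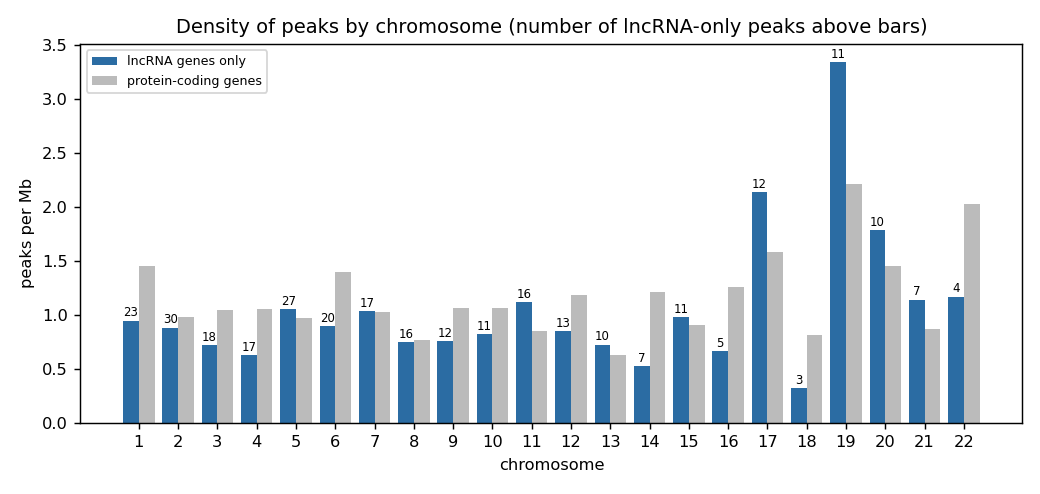
Peaks per Mb on each autosome for lncRNA-only peaks (blue, with their number above the bar) and for peaks inside protein-coding genes (grey). Chromosome 19 has the highest blue bar, 3.34 per Mb from 11 peaks, and chromosome 18 the lowest, 0.320 from 3.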

How the data were processed

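The authors deposited 1 merged peak list in the 10-column layout of MACS2. Per the submitters' processing notes, Bowtie2, MACS2 and GRCh38 were used. Versions, settings, the control and the way of merging: not given in the sources used here. The authors' deposited fold is a linear ratio at the summit, −log10 of the p-value is given for each peak, and the deposited score was the whole part of 10 times it in all 4889 peaks. Fold, score and −log10 p were used only to describe and filter peaks.

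Peaks were classed by midpoint against RefSeq GRCh38.p14 with Python 3.11.15, numpy 2.4.6, pandas 2.3.3 and scipy 1.17.1, tested on simulated data. Lengths run from the first to the last gene of a chromosome. Intervals are Wilson for shares, exact Poisson for densities and order-statistic for medians, at 95%. The share that a count of 0 allows is instead an approximate upper limit, 3 divided by the number of genes or windows searched. Named genes are those of the 15 highest folds, the 10 highest −log10 p, the 3 widest peaks, the 10 genes with most peaks, the top peak of each autosome, list genes with a peak and the 3 peaks on either side of the 5 kb limit. Any other gene named was picked with its value in view. The rule, lists and splits were chosen with earlier results of these data known. Promoter windows covered 7192 of the 11818 open lncRNA genes.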

Additional observations from a re-analysis of the deposited data

Results flagged for a closer look

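The X chromosome, which the rule leaves out, also had peaks inside lncRNA genes away from protein-coding genes. They are listed here because no comparison above uses them. They numbered 22, or 2.02 per Mb of open length (Poisson interval 1.26 to 3.06), and peaks in protein-coding genes of the X chromosome stood at 1.36 per Mb. The median fold of the 22 was 7.31 (interval 5.37 to 11.95), and 5 of them, 22.7% (Wilson interval 10.1 to 43.4), had a fold of 20 or more. That share was 41.7% (36.2 to 47.3) among the autosomal lncRNA-only peaks, with overlapping intervals. The highest folds of the 22 were in LINC03077 (42.6), LOC101928359 (32.6) and FIRRE (31.3), an lncRNA gene known for its part in nuclear organisation. Whether the 22 differ from the autosomal peaks was not tested.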

How the results depend on the processing

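The 7 main results were recomputed under 8 other settings, with 1 more added after the data were seen for 3 of them, and 49 of the 59 values stayed within the interval of the reported value or, for counts, within 1.5 times of it. Moving the limit to 2 or 10 kb from protein-coding genes, using the summit, asking for the whole peak inside the gene, counting peaks within 10 kb once and leaving out the peaks within 5 Mb of a gene-free interval were all among these. With a −log10 p of at least 20 the median fold was 21.4, the share with a fold of 20 or more 54.3%, the median width 556.5 bp and the density 0.687 per Mb. Among peaks at or above the median score of the autosomal list these were 26.2, 61.6%, 555 bp and 0.607 per Mb. Both filters cut on −log10 p or on the score made from it, and fold and −log10 p went together over the 300 peaks (Spearman rho 0.9303). The densities were taken over the same length, with 230 and 203 peaks left. The cause of the shift in width was not tested. Without LOC genes 131 peaks in 121 genes were left, since fewer genes were searched. No paired analysis was possible because each group has 1 library and the list holds 1 merged value per peak. The unknown depth limits how low folds can be read, and the lowest −log10 p in the list was 8.003.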

Other observations

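FAM230 genes, a family of related lncRNA genes on chromosomes 13 and 22, had a lncRNA-only peak in 3 of 10 open members, against 2.50% of all open lncRNA genes. The family was chosen after the values were seen and has 305 kb of open length. The peaks, in FAM230C, FAM230F and FAM230H, were 2897, 1686 and 1483 bp wide, with folds of 2.71, 7.02 and 3.67. How reads were divided among such copies was not tested. Elsewhere, TARID, an antisense RNA gene of the TCF21 locus, had a fold of 8.65, and DISC1FP1 had 18.3. D21S2088E held the peak farthest from a protein-coding gene, 1827 kb from NCAM2, with a fold of 4.45.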
